A study of Mus musculus with 39 samples.

Results

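Cftr, Agr2, Muc1, Muc4, Tff1, Tff2 and Spp1 encode a chloride and bicarbonate channel, a secretory folding protein, membrane mucins, trefoil peptides and a secreted phosphoprotein of duct-like epithelium. These 7 genes were picked by symbol from the 39017 genes of a count table of sorted mouse pancreatic tumour cells. They were chosen on their measured levels in the T cell high and T cell low clones, so their differences between those classes are given as a description without a test.

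The table covered 39 RNA sequencing libraries of 20 tumour cell clones. The labels class 6 clones (14 libraries) as T cell high, 2 clones (4 libraries) as T cell intermediate and 9 clones (18 libraries) as T cell low. They give no class for the other 3 clones, with 1 library each, which were left out of comparisons between classes. Tumours were grown from the clones for 3 weeks as subcutaneous implants in mice of the immunocompetent strain C57BL/6, and their tumour cells were sorted. No group was treated. The labels give neither a genotype of the tumour cells nor an age of the mice, and the titles begin with yfp. Clone names hold a number, read here as that of a parental line, then the letter c and a clone number. Nothing in the labels ties libraries to animals, so the clone was the replicate, and counts of its libraries were summed. P-values between classes therefore measure the spread between such sums, and part of that spread may be technical. Low clones yfp_6419c1, yfp_6419c4 and yfp_6419c5 share a parental line, and lines yfp_6499 and yfp_6556 have clones in both the high and the low class. Comparisons between classes held no term for the line. Clones of a shared line were thus counted as independent, and SD, SE and p-values between classes do not account for it.

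In the normal pancreas, duct cells secrete water and bicarbonate that carry digestive enzymes to the gut, with CFTR as the apical anion channel. Mucins are large glycosylated proteins that coat epithelia, and trefoil factors are small secreted peptides that associate with mucus and take part in epithelial repair, chiefly in the stomach. Pancreatic duct cells of the adult express little of the gastric trefoil and mucin genes, while precursor lesions of pancreatic cancer are known to switch on gastric genes of this kind. AGR2 is a protein disulphide isomerase of the endoplasmic reticulum needed for mucin folding in the mouse intestine, and SPP1, or osteopontin, is a secreted ligand of integrins and CD44 that duct cells and macrophages make.

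Library totals ran from 7638130 to 103794674 counts, with a median of 34565903. The libraries were of 2 kinds. In 19 of them, 18 with tumour number 1 in the title, Myh6, Myh7, Myl2 and Mb, which encode heart muscle proteins, summed to between 151.9 and 4893 CPM (counts scaled to 1000000 per library). In the other 20, of which 1 carried tumour number 1, they summed to at most 0.235 CPM. The sum of 6 liver genes moved with them, at 481 to 15887 CPM per clone in the libraries with heart transcripts and 0.0803 to 241 CPM in those without. Heart-bearing libraries were 6 of the 14 high, 2 of the 4 intermediate and 9 of the 18 low libraries. In 6 libraries from 6 parental lines, 4 high and 2 low, the heart sum passed 4500 CPM. These 6 were more alike than libraries of the same clone without heart transcripts. Their pairwise correlation over 12287 genes was 0.992 to 0.996, against 0.949 to 0.989 in 4 such same-clone pairs, from yfp_2838c3 and yfp_2699c4. No correlation was computed for the other heart-bearing libraries, so the cut at 4500 CPM may not separate the 6 from libraries just below it. The tumour epithelium genes Krt19, Krt8, Krt18, Krt7, Epcam and Cdh1 summed to at least 4495 CPM in each of the 17 clones with a library without heart transcripts, so those libraries carry the epithelial label. Levels below are those of libraries without heart transcripts unless another set is named, and intervals and floors cover counting error only.

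Measured per kilobase of exon, Spp1 was by far the most abundant of the 7. Its median over 17 clones was 3471 CPM per kilobase, rank 3 of 35658 genes, and its rank lay between 1 and 7 in every one of these clones. Muc1 and Tff2 stood at 121 and 118 CPM per kilobase, Tff1 at 32.5, Cftr at 7.78, Agr2 at 5.66 and Muc4 at 1.07. For scale, the keratin genes Krt8 and Krt19 were at 1259 and 712 CPM per kilobase. Clones differed most in the less abundant genes, though not in the order of abundance. From the lowest to the highest clone, Agr2 spanned 1724-fold, Tff1 450-fold, Muc4 201-fold, Cftr 172-fold and Tff2 90.4-fold, against 15.5-fold for Muc1 and 5.45-fold for Spp1. The lowest values of Agr2 (yfp_6422c5), Tff1 (yfp_6499c4) and Muc4 (yfp_6694c2) rested on 4, 20 and 23 counts, so these spans are rough.

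**Figure D1:**
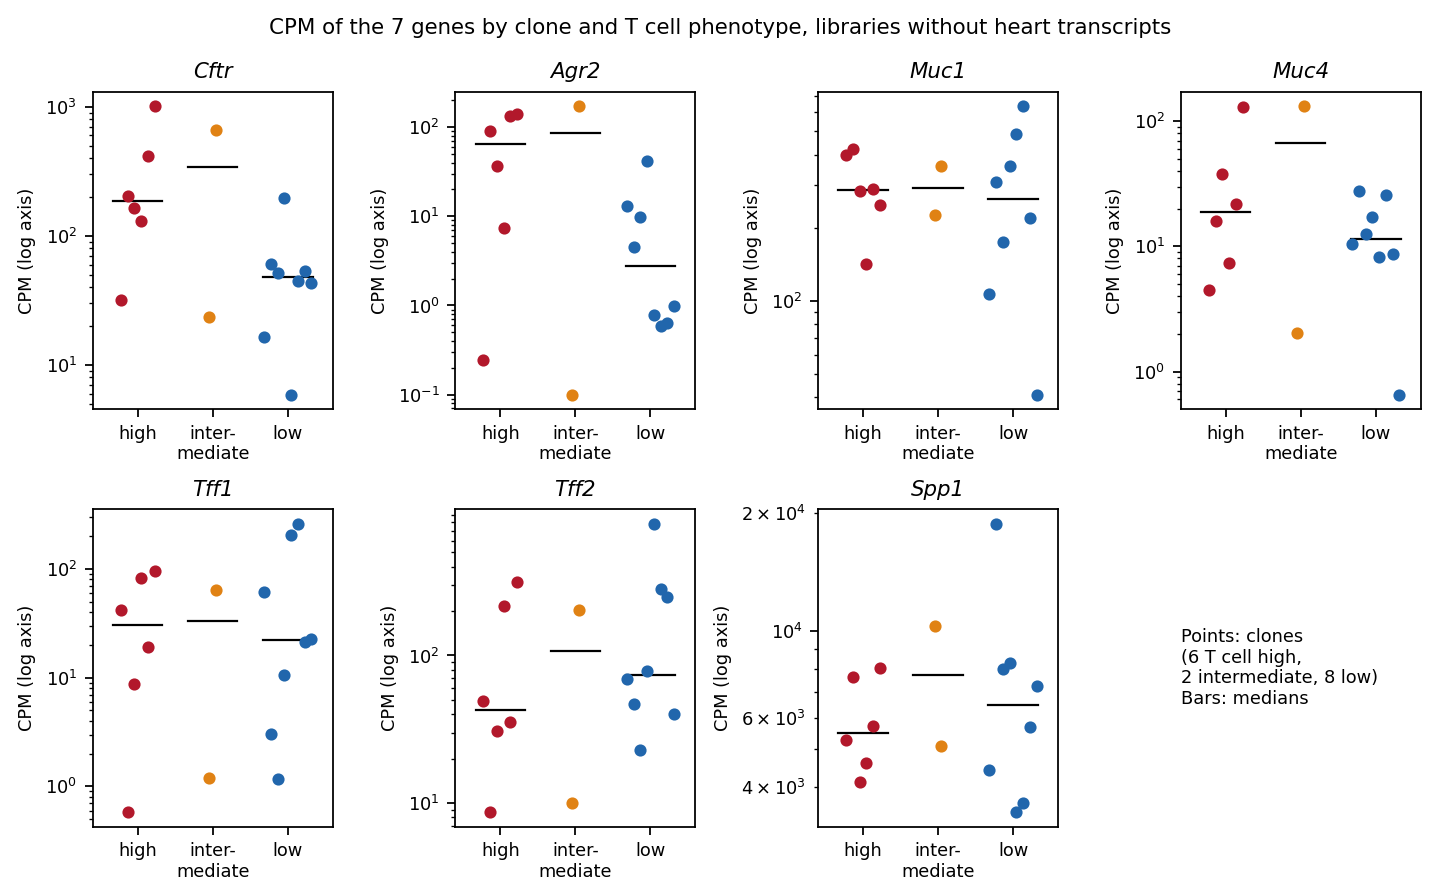
CPM (log axis) of each gene in the clones of the T cell high, intermediate and low classes, from libraries without heart transcripts; each point is a clone and each bar the median of its class. For Cftr and Agr2 3 of the 6 high clones lie above all 8 low clones, while for the other genes at most 2 do.

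Cftr, Agr2 and Muc4 varied together over the clones. Cftr (ENSMUSG00000041301, chromosome 6, 18170687 to 18322768, plus strand, GENCODE M21 on GRCm38) encodes the anion channel, Agr2 (ENSMUSG00000020581, chromosome 12, 35992907 to 36004087, plus strand) the disulphide isomerase and Muc4 (ENSMUSG00000079620, chromosome 16, 32735886 to 32782391, plus strand) a membrane mucin that binds the receptor ERBB2. Spearman's rho between Cftr and Agr2 was 0.82 over 17 clones, between Agr2 and Muc4 0.67 and between Cftr and Muc4 0.61. Leaving out 1 clone at a time kept these between 0.78 and 0.92, 0.61 and 0.80, and 0.53 and 0.69. Clones yfp_7160c2 and yfp_7160c5 share a parental line and were the highest for all of Cftr, Agr2 and Muc4. Over the 15 clones of other lines the values were 0.74, 0.52 and 0.43. The sum of the tumour epithelium genes had a rho of 0.65 with Cftr, 0.49 with Agr2 and 0.61 with Muc4 over the 17 clones. Other marker sums reached similar values. For Cftr, Agr2 and Muc4 in turn, rho was 0.36, 0.50 and 0.72 with skeletal muscle markers. With stomach markers it was 0.49, 0.38 and 0.65, and with liver markers -0.50, -0.44 and 0.05. The part of any of these sums in the co-variation was not tested. Each point of such a comparison shares the library, its depth and its cell mixture between the genes, so rho is a description here.

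The 250 bases before the RefSeq transcription start (GRCm38.p6) of these 3 co-varying genes are shown for their base composition and for motifs that they hold. RefSeq promoters were found for 5 of the 7 genes. Capitals mark matches, on either strand, to any of 7 motifs. Of general promoter elements, the search used the TATA box, spelled TATAAA, the CCAAT box, spelled as its name, and for the GC box the letters GGGCGG. Of factor motifs, it used a FOXA core, which reads TGTTTAC in the search, and a GATA site, which was taken as AGATAA. An AP-1 site was searched as TGANTCA, where N is any base, and finally an HNF1 site was given the letters GTTAAT.
Cftr, chr6:18170437-18170686, plus strand: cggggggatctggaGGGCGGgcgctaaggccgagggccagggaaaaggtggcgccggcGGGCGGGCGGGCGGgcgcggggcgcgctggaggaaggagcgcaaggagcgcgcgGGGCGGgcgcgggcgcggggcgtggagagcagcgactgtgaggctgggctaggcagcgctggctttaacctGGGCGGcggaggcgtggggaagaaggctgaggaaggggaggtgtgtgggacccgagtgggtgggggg
Agr2, chr12:35992675-35992924, plus strand: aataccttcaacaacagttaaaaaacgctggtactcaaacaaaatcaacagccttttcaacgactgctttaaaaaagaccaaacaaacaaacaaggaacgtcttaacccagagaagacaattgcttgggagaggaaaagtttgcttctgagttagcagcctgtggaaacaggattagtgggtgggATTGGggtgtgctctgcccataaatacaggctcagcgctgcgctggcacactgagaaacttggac
Muc4, chr16:32735636-32735885, plus strand: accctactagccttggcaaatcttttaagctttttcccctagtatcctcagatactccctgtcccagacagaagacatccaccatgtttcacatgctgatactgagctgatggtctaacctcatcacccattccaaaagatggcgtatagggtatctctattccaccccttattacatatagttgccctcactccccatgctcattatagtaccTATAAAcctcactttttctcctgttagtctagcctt
The Cftr window was 76.4% G or C with 30 CpG pairs, against 44.4% with 5 for Agr2 and 43.6% with 1 for Muc4. The median of 32851 mouse promoter windows was 52.4%. Cftr held 6 GC boxes, of which the 3 that begin at -192, -188 and -184 overlap each other, and 32.7% of all windows hold at least 1. Agr2 held a CCAAT box on the reverse strand at -65 (33.8% of windows hold 1), and Muc4 a TATA box at -36 (12.4%). None of the 7 motifs was in more than 1 of the 3 windows, and the FOXA, GATA, AP-1 and HNF1 motifs, held by 3.17%, 9.99%, 6.75% and 6.43% of windows, were in none of them. Positions count back from -1, the base before the start. The RefSeq start of Agr2 lies downstream of the GENCODE start, so the end of its window lies within the GENCODE gene.

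Cftr was at 31.6, 130, 164, 205, 418 and 1011 CPM in the 6 T cell high clones yfp_2838c3, yfp_6556c4, yfp_6555c3, yfp_6499c4, yfp_6620c1 and yfp_7160c2. The intermediate clones yfp_6422c5 and yfp_7160c5 had 23.6 and 665 CPM. In the 8 low clones it ranged from 5.89 CPM in yfp_6421c2 to 198 CPM in yfp_6419c5, with a median of 48.3 CPM. Thus 5 of the 6 high clones lay above the median low clone and 3 above every low clone, while yfp_2838c3 lay among the low clones. Means were 327 ± 359 CPM in high (SD, n = 6), 344 ± 453 CPM in intermediate (n = 2) and 59.2 ± 59.2 CPM in low clones (n = 8). The high and intermediate means differed by less than the SD of either. The log2 difference of high over low clones was 2.47 ± 0.72 (SE). Without the high clone yfp_7160c2 it was 1.70.

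Agr2 had the widest range. It was at 0.247, 7.31, 36.7, 91.8, 134 and 142 CPM in the high clones yfp_2838c3, yfp_6556c4, yfp_6555c3, yfp_6499c4, yfp_6620c1 and yfp_7160c2. The intermediate clones yfp_6422c5 and yfp_7160c5 had 0.0999 (4 counts) and 172 CPM, the lowest and the highest value of all. Low clones ran from 0.591 CPM in yfp_6499c3 to 41.9 CPM in yfp_6419c5, with a median of 2.78 CPM. High clones stood above every low clone in 3 cases, and yfp_2838c3 stood below every low clone. Its 3 libraries without heart transcripts held 0, 24 and 2 Agr2 counts; the count of 0 allows up to 0.112 CPM (3 counts of the total). Means were 68.8 ± 62.8 CPM in high, 86.1 ± 122 CPM in intermediate and 9.03 ± 14.1 CPM in low clones, and the log2 difference of high over low was 2.94 ± 1.15.

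Muc4 averaged 36.0 ± 46.9 CPM in high, 66.8 ± 91.6 CPM in intermediate and 13.9 ± 9.18 CPM in low clones. The high clones ran from 4.47 CPM in yfp_2838c3 through a median of 18.9 to 129 CPM in yfp_7160c2, and the low clones from 0.653 CPM in yfp_6694c2 through 11.5 to 27.8 CPM in yfp_6419c1. Above every low clone lay 2 high clones, yfp_7160c2 and yfp_6555c3. The log2 difference of high over low was 1.36 ± 0.73, and 0.32 without yfp_7160c2. Muc4 overlaps Muc20 on the opposite strand at its 3′ end, and the strand setting of the counting is not given, but Muc20 had 2308 counts over all libraries.

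Muc1 (ENSMUSG00000042784, chromosome 3, 89229057 to 89233381, plus strand), a membrane mucin of most glandular epithelia whose cytoplasmic tail binds beta-catenin, was even between the classes. It averaged 297 ± 103 CPM in high, 293 ± 94.7 CPM in intermediate and 292 ± 199 CPM in low clones. High clones spanned 142 CPM in yfp_6556c4 to 423 CPM in yfp_6499c4, inside the range of the low clones, 41.0 CPM in yfp_6694c2 to 635 CPM in yfp_6499c3. The log2 difference of high over low was 0.04 ± 0.45, with low clones on both sides of all high clones, 2 above and 2 below. Muc1 and Muc4 had a rho of 0.41, and with the other 5 genes Muc1 had rho between -0.27 and 0.12.

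Tff1 and Tff2 lie next to each other on chromosome 17 and moved together from clone to clone. Tff1 (ENSMUSG00000024032, 31161395 to 31165277, minus strand) and Tff2 (ENSMUSG00000024028, 31141049 to 31144282, minus strand) are 17.1 kb apart and encode peptides that, in the stomach, are secreted by surface and by neck mucous cells. Their rho over 17 clones was 0.87, with 0.85 the lowest when 1 clone was left out and 0.85 without line yfp_7160. With Cftr, Agr2 and Muc4 the trefoil genes had rho between -0.16 and 0.12, and between -0.43 and -0.12 without line yfp_7160. Tff3, the third gene of the family, was at most 30.7 CPM (yfp_7160c2), with a median of 0.705 CPM. Tff1 overlaps the opposite-strand gene Gm15318, which had 2963 counts over all libraries.

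Tff1 ran from 0.579 CPM in yfp_6499c4 through a median of 30.6 to 96.2 CPM in yfp_7160c2 over the high clones. The intermediate clones yfp_6422c5 and yfp_7160c5 had 1.20 and 64.6 CPM. The low clones ran from 1.18 CPM in yfp_6419c4 through 21.98 to 260 CPM in yfp_6499c3. The ranges overlapped, with low clones yfp_6499c3 and yfp_6421c2 above every high clone and yfp_6499c4 below every low clone. Means were 41.5 ± 39.7, 32.9 ± 44.8 and 73.1 ± 101 CPM in high, intermediate and low clones, and the log2 difference of high over low was -0.76 ± 1.11.

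Tff2 ran from 8.65 CPM in yfp_6499c4 through 42.4 to 313 CPM in yfp_7160c2 over the high clones, and from 22.9 CPM in yfp_6419c4 through 73.8 to 782 CPM in yfp_6421c2 over the low clones. In the intermediate clones yfp_6422c5 and yfp_7160c5 it was at 10.1 and 203 CPM. Clones of every class thus held both low and high Tff2. Means were 109 ± 125, 107 ± 137 and 196 ± 256 CPM in high, intermediate and low clones, and the log2 difference of high over low was -0.80 ± 0.89, and 0.0025 without the low clone yfp_6421c2.

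Spp1 (ENSMUSG00000029304, chromosome 5, 104435118 to 104441050, plus strand) made up 0.345% (yfp_6421c2) to 1.88% (yfp_6419c1) of all counts. It averaged 5906 ± 1604 CPM in high, 7700 ± 3710 CPM in intermediate and 7435 ± 4958 CPM in low clones. High clones spanned 4128 CPM in yfp_6555c3 to 8051 CPM in yfp_7160c2, between 2 low clones below them and 2 above them. The log2 difference of high over low was -0.34 ± 0.37, and 0.04 without the low clone yfp_6419c1. Spp1 ran against Tff1, with a rho of -0.60 (between -0.74 and -0.53 with 1 clone left out), and against Tff2 with -0.41. The 5 clones with the least Tff1 included yfp_6419c1 and yfp_6422c5, the 2 with the most Spp1, and the 2 clones with the most Tff1, yfp_6499c3 and yfp_6421c2, had the least Spp1. Clones yfp_6419c1, yfp_6419c4 and yfp_6419c5 share a parental line. Their Spp1 was at 18773, 7990 and 8290 CPM and their Tff1 at 3.05, 1.18 and 10.5 CPM. No rho was computed without that line. In the heart-bearing library of yfp_6499c3, Spp1 was at 6275 CPM beside 439 CPM of Tff1, so its low Spp1 was not seen there. Macrophages also make osteopontin. The rho of Spp1 with the summed macrophage markers was -0.54, and -0.63 with the pan-leukocyte markers, and the part of such cells in its level was not tested. All 10 macrophage markers were found, and their sum was 109 to 2811 CPM in high and 95.2 to 1720 CPM in low clones.

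**Figure D2:**
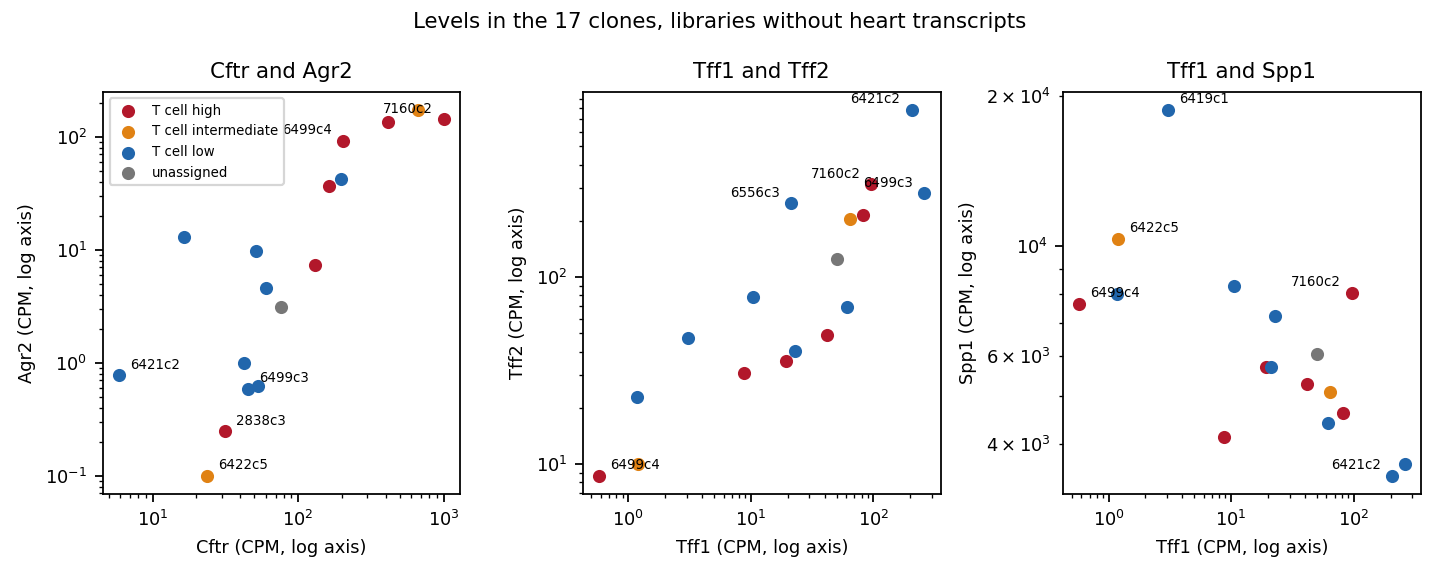
CPM of 2 genes against each other (log axes) in the 17 clones with a library without heart transcripts, coloured by T cell phenotype. Cftr and Agr2 rise together (rho 0.82), as do Tff1 and Tff2 (0.87), while Spp1 falls as Tff1 rises (-0.60).

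With all libraries of a clone summed, the genes other than Muc1 differed in the same direction. The log2 differences of high over low clones (6 and 9 clones) were 1.96 ± 0.58 for Cftr, 2.63 ± 0.83 for Agr2, 1.23 ± 0.63 for Muc4, -0.20 ± 0.41 for Muc1, -0.87 ± 0.86 for Tff1, -0.58 ± 0.76 for Tff2 and -0.63 ± 0.27 for Spp1. The sign of both trefoil genes rested on 1 low clone: Tff1 was at 0.052 without yfp_6499c3 and Tff2 at 0.085 without yfp_6421c2. Spp1 was at 4668 ± 859 CPM in high and 6904 ± 3079 CPM in low clones, with 6 of the 9 low clones above every high clone. In heart-bearing libraries alone, Spp1 was at 2848 to 3048 CPM in 4 high clones, under all low clones. These are the 4 high clones among the 6 libraries that resembled each other, in which Spp1 was at 2632 to 3325 CPM whatever the class. Without those 6 libraries the differences were 2.21 ± 0.62 for Cftr, 2.85 ± 0.95 for Agr2 and -0.37 ± 0.28 for Spp1.

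By edgeR's quasi-likelihood test with Benjamini-Hochberg adjustment, 0 of the 7 genes and 0.0% of 18529 genes were called between high and low clones over all libraries, and 0 of 7 and 0.0% of 15614 genes in libraries without heart transcripts. At an unadjusted p under 0.05 there were 2175 and 2093 genes, and DESeq2 called 123 and 299. With each library as a replicate and the tumour number as a block, edgeR called 8 genes over all libraries. The 7 genes were chosen on this contrast, so nothing is read from their share. The intermediate clones were compared in 1 fit of 17 clones, in which 0 of the 7 genes and 0.005% of 20003 genes (1 gene) were called against low clones, with 1008 at an unadjusted p under 0.05 and 18 by DESeq2. Their log2 differences over low clones were 2.29 ± 0.85 for Cftr (edgeR adjusted p = 0.823), 3.07 ± 1.24 for Agr2 (0.888), 2.17 ± 0.96 for Muc4 (0.961) and between -1.02 ± 1.38 (Tff1) and -0.01 ± 0.41 (Spp1) for the other 4 genes (0.9997 each). High against intermediate clones, 0 of 7 and 0.0% of 20003 genes were called (413 at an unadjusted p under 0.05, 0 by DESeq2), with log2 differences between -0.96 ± 1.08 (Muc4) and 0.13 ± 1.35 (Tff1). Only 2 intermediate clones were available, one with the highest and one with the lowest Agr2 of the study, so this comparison bounds little. Both comparisons of intermediate clones also use the low or high clones on whose levels the 7 genes were chosen. Their p-values are therefore no independent check of these genes.

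Clones of 1 parental line that differed in class showed how far the genes can separate within a line. In line yfp_6499, the high clone yfp_6499c4 had 91.8 CPM of Agr2 (3173 counts), against 0.591 CPM (23 counts, 95% exact Poisson interval 0.375 to 0.887) in the low clone yfp_6499c3, 155-fold higher. The trefoil genes went the other way. Tff1 was at 0.579 CPM (20 counts, interval 0.353 to 0.894) in yfp_6499c4 and 260 CPM in yfp_6499c3, and Tff2 at 8.65 and 280 CPM, log2 ratios of -8.81 and -5.02. Cftr was at 205 CPM in yfp_6499c4 and 45.0 CPM in yfp_6499c3. Each clone had 1 library of this kind, so these are differences between 2 libraries with no replicate check. The heart-bearing libraries of the same clones gave the same direction for Agr2 (17.3 against 0.424 CPM), Tff1 (40.2 against 439 CPM) and Tff2 (40.1 against 150.0 CPM), and the opposite one for Cftr (29.7 against 52.0 CPM). The heart-bearing library of yfp_6499c4 is 1 of the 6 that resembled each other across lines, so it gives no second check of this clone.

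In line yfp_6556, the high clone yfp_6556c4 also had more Agr2 than the low clone yfp_6556c3, 7.31 against 0.630 CPM, and more Cftr, 130 against 53.5 CPM. Tff1 stood at 82.3 CPM in yfp_6556c4 and 21.1 CPM in yfp_6556c3, the opposite direction to line yfp_6499, and Tff2 at 215 and 248 CPM. In heart-bearing libraries the Tff1 values were 53.6 against 85.1 CPM and those of Cftr 36.7 against 50.5 CPM, so neither had the same direction in both kinds. The heart-bearing library of yfp_6556c4 is also 1 of the 6 alike ones. In line yfp_7160, the high clone yfp_7160c2 and the intermediate clone yfp_7160c5 were within 1.59-fold of each other for each of the 7 genes, although their classes differed. Line yfp_6422 held the low clone yfp_6422c1 and the intermediate clone yfp_6422c5, comparable only in heart-bearing libraries, 1 of each clone. Here, unlike in lines yfp_6499 and yfp_6556, the clone of the lower class had more Agr2, 3.76 against 0.378 CPM (190 and 7 counts). Clone yfp_6422c1 also had more Cftr, Muc4 and Spp1, and less Muc1, Tff1 and Tff2. For comparison, 3 libraries of the single clone yfp_2838c3 differed by up to 3.95-fold for Muc4 and 3.75-fold for Tff1, and by up to 1.14-fold for Spp1. The 2 of yfp_2699c4 differed by up to 4.99-fold for Muc4 and 2.64-fold for Tff1. Sister differences of Agr2 in lines yfp_6499 and yfp_6556 were larger than the 1.92-fold between the libraries of yfp_2699c4, but the 3 of yfp_2838c3, with 0, 24 and 2 counts, also lay far apart.

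**Figure D3:**
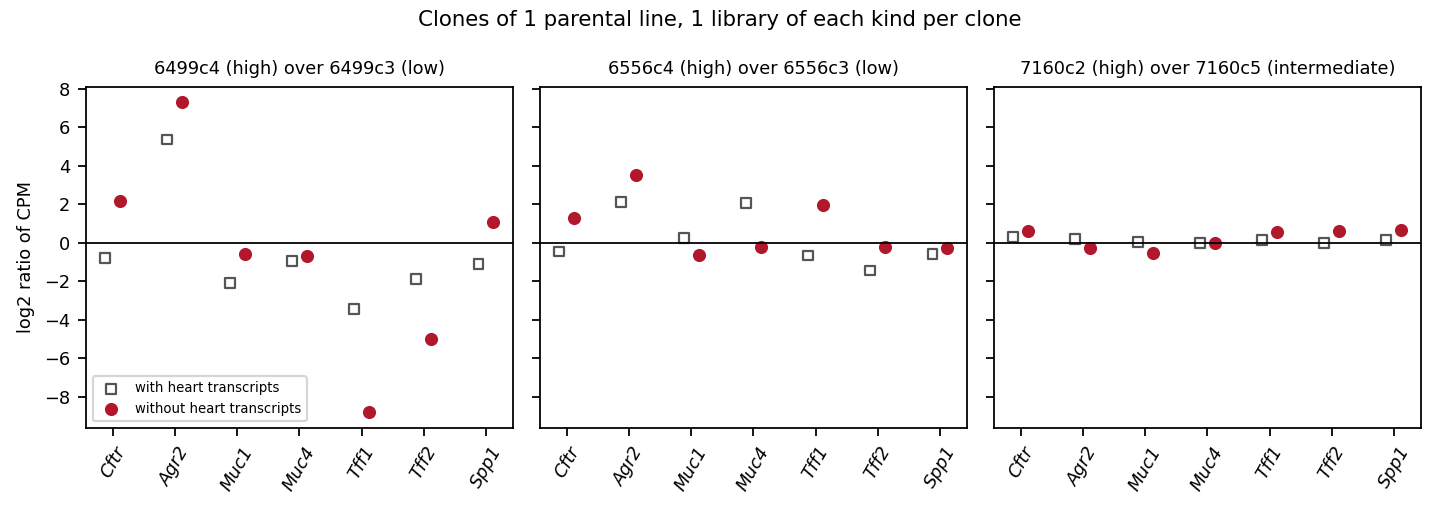
Log2 ratio of CPM between 2 clones of a parental line for each gene, the first-named clone over the second, in libraries with (squares) and without (circles) heart transcripts. Without heart transcripts, Agr2 is higher in the high clone of lines yfp_6499 and yfp_6556, Tff1 is far lower in yfp_6499c4 than in yfp_6499c3, and the clones of line yfp_7160 lie near 0. In the squares of yfp_6499 and yfp_6556, the library of the high clone, but not that of the low clone, is 1 of the 6 alike across lines.

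The genes were chosen on the classes and not on a difference between library kinds, which was tested within clones. The levels behind that choice came from the same libraries. Over the 15 clones with both kinds, heart-bearing libraries had lower Cftr in 12, lower Tff2 in 13 and lower Spp1 in 12. Cftr averaged 65.3 ± 99.5 CPM with and 205 ± 286 CPM without heart transcripts, Tff2 74.1 ± 65.3 and 161 ± 202 CPM, and Spp1 4520 ± 1994 and 6822 ± 3845 CPM (SD, n = 15 clones). The log2 differences with the clone as a block were -1.33 ± 0.34 for Cftr (edgeR adjusted p = 0.00320), -0.74 ± 0.28 for Tff2 (0.0324) and -0.61 ± 0.17 for Spp1 (0.00555). These 3 of the 7 genes fell, while 58.7% of the 16435 genes tested were called, so the share of the 7 was not above that of all genes. Tff1 was higher in 11 of 15 clones (1.08 ± 0.46, 0.0519), and Agr2 (-0.17 ± 0.57, 0.809), Muc1 (0.06 ± 0.17, 0.793) and Muc4 (-0.38 ± 0.21, 0.136) did not pass.

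The 6 alike libraries decided some of these values. Across them Cftr was at 18.7 to 38.5 CPM, Agr2 at 9.64 to 22.2 CPM, Muc1 at 239 to 268 CPM, Muc4 at 7.21 to 15.5 CPM, Tff1 at 36.4 to 53.6 CPM and Tff2 at 23.3 to 48.9 CPM. In the other library kind of the same 6 clones Agr2 ranged from 7.31 to 134 CPM and Tff1 from 0.579 to 82.3 CPM. With them left out, 10 clones could be compared, and Tff2 kept its call (-0.73 ± 0.26, edgeR adjusted p = 0.0394), but Cftr (-0.58 ± 0.25, 0.0841) and Spp1 (-0.34 ± 0.20, 0.205) did not. The spread of the clones was smaller in heart-bearing libraries for all 7 genes. The SD of log2 CPM was 1.41 with and 2.06 without heart transcripts for Cftr, 2.38 and 3.47 for Agr2, and 1.15 and 2.53 for Tff1. Of 6 epithelial markers 4 were lower in heart-bearing libraries, and all 5 endothelial, 7 fibroblast, 6 pan-leukocyte and 6 liver markers were higher. Their part in the differences of the 7 genes was not tested, and a lower share of tumour cells and less RNA per cell cannot be told apart in such bulk counts.

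**Figure D4:**
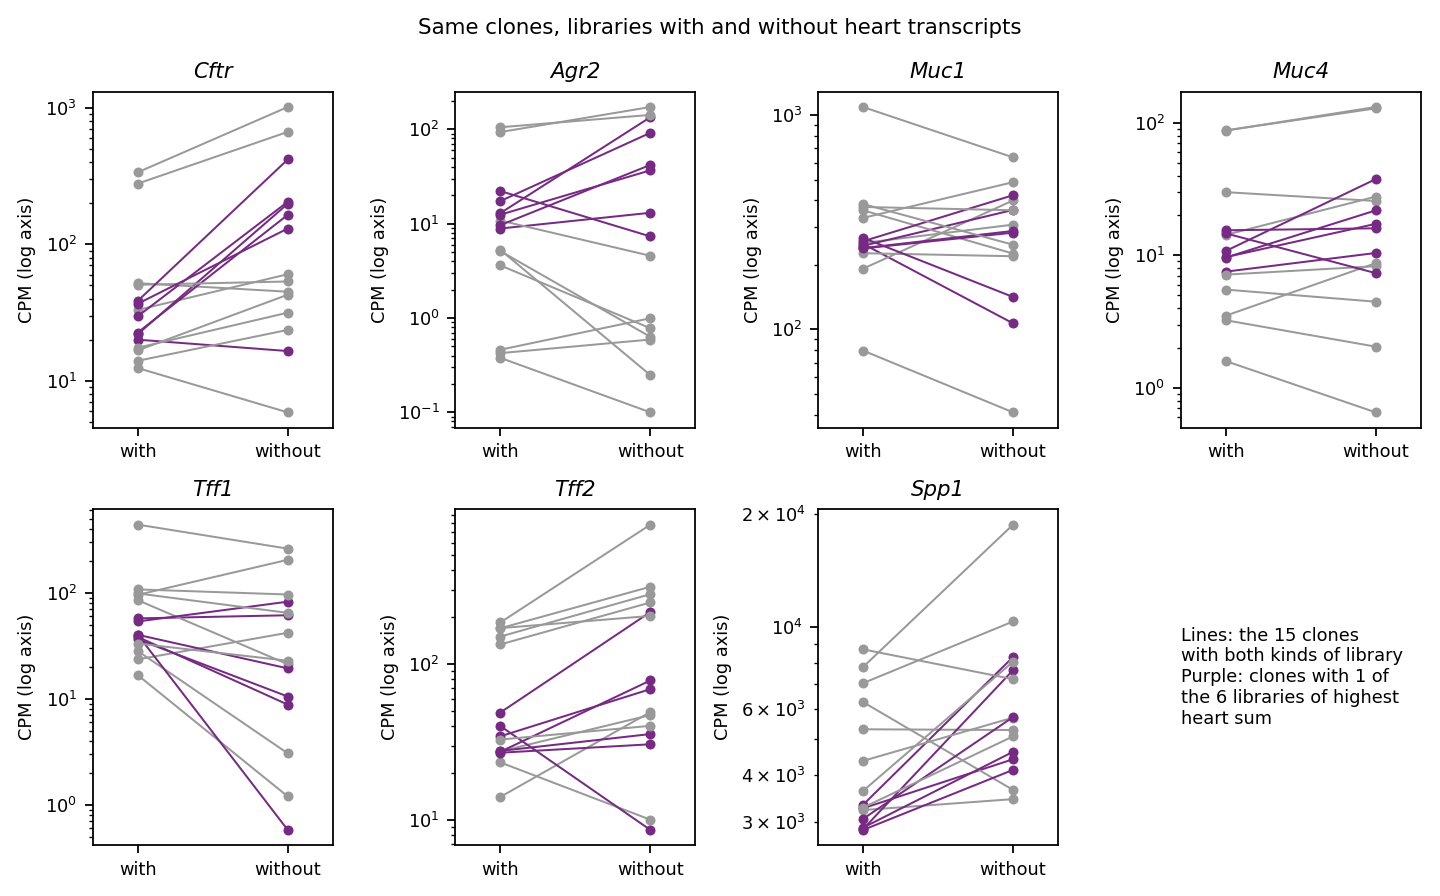
CPM (log axis) of each gene in libraries with and without heart transcripts of the same 15 clones, joined by lines; purple marks the clones with 1 of the 6 libraries of highest heart sum. The purple points of all clones sit close together on the left and spread on the right, as for Tff1, 36.4 to 57.3 CPM with and 0.579 to 82.3 CPM without heart transcripts.

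Genes that share the pathways of the 7 were taken from 7 lists. For these, log2 differences, medians and adjusted p are over all libraries, and CPM levels are from those without heart transcripts, unless another set is named. Between high and low clones, edgeR called 0 genes in any list over all libraries or in those without heart transcripts. In the list of gastric and goblet cell secretory genes, 16 of 22 tested had a positive difference of high over low clones, with a median log2 difference of 0.94, beside 48.3% and -0.01 for all genes. In libraries without heart transcripts it was 19 of 22 and 1.24, beside 49.6% and -0.0024 for all genes of that set. There, differences were also positive for 10 of 10 macrophage markers (median 1.58), 5 of 6 pan-leukocyte (1.68), 5 of 5 endothelial (1.23), 6 of 7 fibroblast (1.10) and 6 of 6 tumour epithelium markers (0.35), whose part in the differences of the list and of the 7 genes was not tested. Its members with the smallest p were Fcgbp, which encodes a mucus protein that binds the Fc part of IgG (39.8 ± 64.0 CPM in high and 2.50 ± 3.11 CPM in low clones, edgeR adjusted p = 0.277 over all libraries), and Tff3 (6.61 ± 12.1 and 1.60 ± 1.93 CPM, 0.320). The mean of Tff3 in high clones came mostly from yfp_7160c2. The most abundant genes of the list were Dmbt1, a scavenger receptor of mucosal secretions, at 3019 ± 2006 CPM in high and 1357 ± 882 CPM in low clones, and Ctse, an aspartic protease of gastric epithelium, at 832 ± 191 and 570 ± 364 CPM.

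Of 8 other mucins tested, 6 had a positive difference, with a median of 1.39. Muc6, a gland mucin of the stomach, was at 7.30 ± 10.1 CPM in high and 1.35 ± 1.80 CPM in low clones (log2 difference over all libraries 1.74 ± 0.54, adjusted p = 0.332). Muc5b, a gel-forming mucin, was at 2.29 ± 2.91 and 25.2 ± 38.7 CPM (-2.01 ± 0.75, 0.364), and Muc5ac, the surface mucin of the stomach, at 17.5 ± 31.2 and 59.3 ± 118 CPM. In the list of duct fluid and bicarbonate secretion the median difference was 0.07, with 15 of 24 positive. It held the anion exchanger genes Slc26a3 (6.13 ± 14.5 CPM in high and 0.242 ± 0.496 CPM in low clones) and Slc26a9 (49.996 ± 23.3 and 22.5 ± 11.6 CPM, log2 difference 0.86 ± 0.30, adjusted p = 0.349). The SD of Slc26a3 in high clones was more than its mean, so its level was not shared by all of them. Slc12a2, the basolateral cotransporter that loads chloride, was at 623 ± 161 and 683 ± 305 CPM. Among 25 foregut and duct transcription factors the median was 0.14, with Ehf at 0.91 ± 0.32 and Pdx1 at -0.66 ± 0.23 (adjusted p = 0.349 each). Their most abundant members, Onecut2 and Hnf4a, were at 734 ± 134 and 280 ± 112 CPM in high and at 729 ± 254 and 299 ± 41.9 CPM in low clones.

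In the 3 remaining lists the medians lay between -0.05 and 0.26. Mucin glycosylation and secretory folding had a median of 0.01, with 16 of 31 positive. Its Hspa5 and Pdia3, chaperones of the endoplasmic reticulum, were at 1109 ± 329 and 908 ± 181 CPM in high and 1010 ± 141 and 902 ± 173 CPM in low clones, while Fut2, which fucosylates mucins, was at 53.1 ± 31.5 CPM in high and 18.7 ± 12.5 CPM in low clones (log2 difference 1.20 ± 0.40, adjusted p = 0.344). Mucin and trefoil binding partners had a median of 0.26, with 9 of 13 positive, and its Ctnnb1, beta-catenin, was at 2335 ± 494 CPM in high and 1428 ± 216 CPM in low clones, with a log2 difference of 0.72 ± 0.15 in the same libraries (adjusted p = 0.148) and 0.32 ± 0.11 over all libraries (0.344). Osteopontin receptors and processing had a median of -0.05, with 7 of 18 positive. Cd44 was at 751 ± 295 and 564 ± 233 CPM in high and low clones, Itgav at 286 ± 72.0 and 358 ± 83.6 CPM (-0.42 ± 0.16, 0.366), and the metalloprotease gene Mmp7 at 8.42 ± 10.9 and 0.858 ± 1.29 CPM (3.29 ± 1.51, 0.364, in the same libraries and 2.04 ± 0.81, 0.368, over all). In each list 0 genes were called for intermediate against low and for high against intermediate clones.

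In heart-bearing against other libraries of the same clones, genes of every list were called, as were 58.7% of all 16435 genes tested. Of 31 tested genes of mucin glycosylation and secretory folding, 14 fell and 3 rose; Galnt7, which adds GalNAc to mucin peptides, fell by 0.96 (log2; edgeR adjusted p = 1.70e-05) and Pdia6, a disulphide isomerase, fell by 0.68 (2.38e-05). Of 24 duct secretion genes 11 fell, among them the chloride channel gene Ano1 (-0.86 ± 0.11) and Slc12a2 (-0.90 ± 0.16), and 6 rose, led by Kcnma1 (4.16 ± 0.55). Of 25 transcription factor genes 11 fell, with Pdx1 at -0.97 ± 0.12, and 8 rose. Of 22 gastric and goblet genes 8 rose, such as Clca1 (3.11 ± 0.48) and Lyz1 (2.67 ± 0.59), and 3 fell. Muc20 and Muc2 rose among 8 other mucins, 4 rose and 4 fell among 13 binding partners, with the mucin partner gene Erbb2 at -0.76 ± 0.09, and 7 rose and 3 fell among 18 osteopontin receptor and processing genes, with the integrin gene Itgav at -0.70 ± 0.12. Of all 16435 genes tested, 5258 rose and 4387 fell. The counts of the lists were not tested against these shares, so nothing about the lists is read from them.

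Genes with the most similar ranks over the 17 clones, among 10552 genes of at least 5 CPM, were found for each of the 7. For Cftr they were Pih1d1 (rho 0.94), Acsm3 (0.92) and Oat (0.90), and for Agr2 Ckb (0.90), Tmem200a (0.88) and the claudin gene Cldn4 (0.88), which ran from 1.11 to 188 CPM. For Muc1 they were Adap1 (0.94), Ctsa (0.90) and Clic3 (0.88), and for Muc4 Frk (0.92), Sppl2b (0.89) and Gkn3 (0.88), a gastrokine gene that ran from 0.0568 to 141 CPM. The nearest gene to Tff1 out of all 10552 was Tff2 (0.87), followed by Tead4 (0.87) and Ccdc88c (0.86). Tff2 was closest to Oas3 (0.88), Tff1 (0.87) and Usp18 (0.82). Oas3 and Usp18 are known as genes induced by interferon, and ran from 1.02 to 25.4 CPM and from 0.649 to 25.3 CPM. Spp1 was closest to Sirt2 (0.90), Stag2 (0.88) and Lims1 (0.87), each of which spanned a narrower range than Spp1, as Sirt2 at 41.5 to 75.0 CPM. The highest of so many rho values is high by selection, so these names describe the ranks and no more.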

How the data were processed

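RNA was measured in 39 libraries of sorted tumour cells. Per the labels' protocols, RNA came from a column kit and libraries from an NEB kit, sequenced on a NextSeq instrument. The authors deposited 1 table of raw counts per gene. Per the submitters' processing notes, they used STAR, featureCounts and the mm10 genome. The sources used here give no version, annotation or strand setting, so reads of overlapping genes cannot be assigned. Of the gene identifiers, 37607 were found in GENCODE M21 (GRCm38), which gave the coordinates. For 162 repeated symbols 1 row was kept.

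The members and lists were chosen with earlier results of these data known. CPM used the full total of each library. Libraries with Myh6, Myh7, Myl2 and Mb summing to under 10 CPM were called without heart transcripts. Counts were summed per clone, filtered (filterByExpr), TMM-scaled and tested over all genes by edgeR 4.0.16 (quasi-likelihood, R 4.3.3), at an adjusted p under 0.05. Library kinds were compared on sums per clone and kind, with the clone as a block. Those p-values measure how the difference between kinds varies from clone to clone, and part of that spread may be technical. Spearman correlations were computed on TMM-scaled log2 CPM. Level per kilobase used merged GENCODE exons. The steps were tested on simulated counts. Alternatives were RLE scaling, no filter, DESeq2 1.42.0, each clone left out, single libraries as replicates, other sets of libraries and, chosen after seeing the data, leaving out the 6 alike libraries or a parental line. Named list genes were, per list, the 2 with the highest CPM and the 2 with the smallest p between classes, and up to 4 called genes per direction between library kinds. Tumour numbers in the titles were used as a block in 1 alternative, since deviations from the class means correlated at 0.93, 0.83, 0.57 and 0.31 for numbers 1 to 4. Unlike numbers among 2 to 4 also correlated, at 0.34 to 0.76, and number 1, which marks 18 of the 19 heart-bearing libraries, at -0.90 to -0.52 with them, so the block cannot be told apart from the library kind. Of the sequences, promoters are from RefSeq on GRCm38.p6.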

Additional observations from a re-analysis of the deposited data

Results flagged for a closer look

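Of 28 groups checked (7 genes in 6 high and in 8 or 9 low clones, over all libraries and over those without heart transcripts), 13 held a clone far from the other clones of its class. Chance gives about 1 such group in 20 for independent, normally distributed values. The check used CPM and not its logarithm, levels spanned many-fold between clones, and these groups share clones and libraries. That rate is therefore no yardstick here, and on a log scale the check was not made. In each of the 13 groups the flagged clone was the highest of its class. Among high clones it was yfp_7160c2 each time, with Cftr at 604.6 CPM and Muc4 at 103.9 CPM over all libraries and Muc4 at 128.6 CPM in those without heart transcripts. Among low clones, yfp_6419c5 stood above the rest with Cftr at 133.3 CPM and Agr2 at 30.1 CPM over all libraries, and at 198 and 41.9 CPM in those without heart transcripts. Clone yfp_6499c3 had the highest Muc1, 966.7 CPM, and the highest Tff1, 390 CPM, over all libraries. Most of its counts came from its heart-bearing library (103794674 against 38928959 counts). That library had 1091 CPM of Muc1 and 439 CPM of Tff1, and the other 635 and 260 CPM. Neither gene was flagged for this clone in libraries without heart transcripts. Tff2 was highest in yfp_6421c2, at 489 CPM over all libraries and 782 CPM in those without heart transcripts. Spp1 was highest in yfp_6419c1, at 13607 CPM over all libraries and 18773 CPM in those without heart transcripts.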

How the results depend on the processing

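Between high and low clones the 0 calls became 123 with DESeq2, 9 with each library as a replicate and 8 with the tumour number as a replicate block, and 0 to 16 with 1 clone left out (16 without yfp_2838c3, 1 without yfp_6421c2). In libraries without heart transcripts the 0 calls became 299 with DESeq2 and 0 to 37 (37 without yfp_2838c3, 1 without yfp_6694c2). For intermediate against low clones the 1 call became 18 with DESeq2, 0 in libraries without heart transcripts, 0 without the 6 alike libraries and 0 to 99 with 1 clone left out (99 without yfp_6422c5, 6 without yfp_7160c2). The tumour number was a block only in the comparison of high and low clones over all libraries.

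With 1 clone left out, the log2 differences of high over low clones ran from -1.25 to 0.052 for Tff1, -1.17 to 0.085 for Tff2 and -0.35 to 0.25 for Muc1 over all libraries, and from -1.44 to 0.0025 for Tff2, -0.45 to 0.043 for Spp1 and -0.12 to 0.29 for Muc1 in those without heart transcripts. Those of heart-bearing over other libraries ran from -0.062 to 0.12 for Muc1 and -0.49 to 0.056 for Agr2. For intermediate over low clones they ran from -1.11 to 3.22 for Cftr, -5.20 to 4.06 for Agr2, -0.15 to 0.44 for Muc1, -2.18 to 3.13 for Muc4, -2.97 to 0.54 for Tff2 and -0.82 to 0.52 for Spp1. For high over intermediate clones they ran from -1.27 to 3.06 for Cftr, -1.45 to 7.81 for Agr2, -2.01 to 3.38 for Muc4, -0.75 to 2.77 for Tff1, -1.13 to 2.37 for Tff2 and -1.17 to 0.18 for Spp1. In libraries without heart transcripts alone, Muc1 (0.039) and Spp1 (0.10) turned for intermediate over low and Muc1 (0.0032) and Tff2 (0.10) for high over intermediate clones. Between library kinds Muc1 turned to -0.020 without line yfp_7160, and Agr2 to 0.046 without line yfp_6499 and 0.61 without the 6 alike libraries, which also turned Cftr (0.17), Agr2 (0.10) and Tff2 (0.033) for high over intermediate clones. The cause was not tested.

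Between library kinds, Tff2 missed the threshold without yfp_6419c5, yfp_6421c2 or yfp_6556c4 (adjusted p = 0.0525, 0.0502 and 0.0649), without the clone block (0.0775) and by tumour number (0.0730), and Tff1 passed with DESeq2 (0.00728), by tumour number (0.0332) and without yfp_2838c3, yfp_6421c2 or yfp_6556c4 (0.0383, 0.0328 and 0.0337). Muc4 passed without yfp_6694c2 (0.0441). Of 357 alternative values of rho, 304 lay within 0.1 of the main one, and of 70 mean CPM values 66 lay within 1 SD. Heart thresholds of 1 and 100 CPM gave the same libraries.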

Other observations

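The 3 clones to which the labels give no class had 1 library each. In yfp_6883c1, with heart transcripts, Cftr was at 8.23 CPM, Agr2 at 4.16 CPM, Muc1 at 97.5 CPM, Muc4 at 3.49 CPM, Tff1 at 15.6 CPM, Tff2 at 10.3 CPM and Spp1 at 4994 CPM. Its sister clone yfp_6883c4, also with heart transcripts, had 26.7 CPM of Agr2, 23.0 CPM of Cftr, 206 CPM of Muc1 and 3312 CPM of Spp1. In yfp_7062c3, without heart transcripts, Cftr was at 76.7 CPM, Agr2 at 3.10 CPM, Muc1 at 91.9 CPM, Muc4 at 1.10 CPM, Tff2 at 125 CPM and Spp1 at 6062 CPM.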
